A study of Mus musculus with 2 samples.

Results

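Footprints are short stretches inside open chromatin where bound protein shields the DNA from DNase I, so the enzyme cuts less often there than on either side. The footprints described here are the wide ones, chosen by their deposited width of at least 30 bp, and they are set against the narrow ones of 7 to 12 bp. Replicate 1 had 12505 wide footprints among 234094 in all (5.34%), and replicate 2 had 10241 among 154015 (6.65%). The narrow footprints numbered 159364 in replicate 1 and 103055 in replicate 2. Width chose the members, so the widths themselves are given as a description.

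Both libraries are DNase-seq of frontal cortex from female mice of the F1 hybrid strain B6CASTF1/J at 14 days of age, with no treatment and no second condition named in the labels. They are biological replicates with separate biosample entries under 1 donor entry, and the labels carry the mark 3x without a meaning, so it is unknown whether tissue of several animals was pooled. With 2 libraries of 1 group an exact two-sided sign-flip test cannot go below p = 0.5, so none is given. Shares are therefore given for each library, and 95% Wilson intervals cover counting error within a library, not the spread between animals. Footprints in the same peak share that peak and are not independent.

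Most transcription factors contact a handful of bases, while some proteins and complexes cover several turns of the helix. CTCF, the zinc-finger protein that marks chromatin loop anchors and insulators, reads a long site: its central fingers contact a core sequence, and further fingers can contact a separate element upstream of it. RNA polymerase III genes such as tRNA genes carry their promoter inside the gene, in boxes bound by the large factor TFIIIC. In the brain, promoters of immediate-early genes such as Fos and Arc are known for the dense set of factors that sit close to the transcription start site (TSS).

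The sequences below carry the main pattern of the report. They are RefSeq sequence of build GRCm38 (mm10), which is that of the C57BL/6J parent. Each is the whole footprint as called in replicate 1. It is printed 5′ to 3′ in the orientation of the CTCF core, and the core is in capitals. The first set holds footprints of 30 to 34 bp in both libraries, where the core lies near the left edge, on the plus strand except for the first, at Nuak1.
Nuak1 intron, chr10:84438191-84438222: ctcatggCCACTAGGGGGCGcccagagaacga
Intergenic, nearest TSS Snord12, chr2:167072163-167072192: aggaaggCCACCAGGGGGCAgtagcccctc
Intergenic, nearest TSS Snord12, chr2:167072224-167072255: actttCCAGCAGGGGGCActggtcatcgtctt
Pebp4 intron, chr14:69861569-69861598: agagttaCCACCAGGGGGCGcgaggtgacc

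The second set holds footprints of 40 to 50 bp in both libraries, all on the plus strand. The word TGCANTNCC (N is any base) starts 17 bp before the core in each of them, and it is in capitals too.
Intergenic, nearest TSS Gm5314, chr6:99804407-99804453: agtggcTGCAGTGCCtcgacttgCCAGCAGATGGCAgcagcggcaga
Intergenic, nearest TSS Srxn1, chr2:152112085-152112131: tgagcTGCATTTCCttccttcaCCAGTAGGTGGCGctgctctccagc
Intergenic, nearest TSS Ptma, chr1:86501759-86501805: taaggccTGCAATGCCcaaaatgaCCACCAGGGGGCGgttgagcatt
Ror2 intron, chr13:53119891-53119938: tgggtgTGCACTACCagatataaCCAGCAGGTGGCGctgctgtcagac
These examples were picked for holding the exact core and, in the second set, the word, and they lay in the strongest peaks that met those conditions.

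Most footprints were short, with a median of 10 bp in both libraries, and numbers mostly fell with width to a shelf between about 37 and 47 bp. The fall was broken at 13 bp, just above the narrow class. Numbers at 12, 13 and 14 bp were 11289, 13249 and 4038 in replicate 1, and 6894, 9362 and 2452 in replicate 2. In replicate 1 the number of footprints per width reached a low of 389 at 40 bp and rose again to 461 at 44 bp, and in replicate 2 it reached a low of 403 at 38 bp and rose to 475 at 41 bp. Footprints of 40 to 50 bp numbered 3978 and 3720 in replicates 1 and 2, and those of 51 bp or more 274 and 198. The median wide footprint measured 35 and 37 bp, and the widest 98 and 96 bp. Wide footprints made up 15.7% and 19.2% of all footprint bases. At the edge of the rule, the 1464 and 1028 footprints of exactly 30 bp resembled the 1711 and 1167 footprints of 29 bp: 84.8% and 94.6% of the first lay over a footprint of the other library, against 83.2% and 95.2% of the second.

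**Figure D1:**
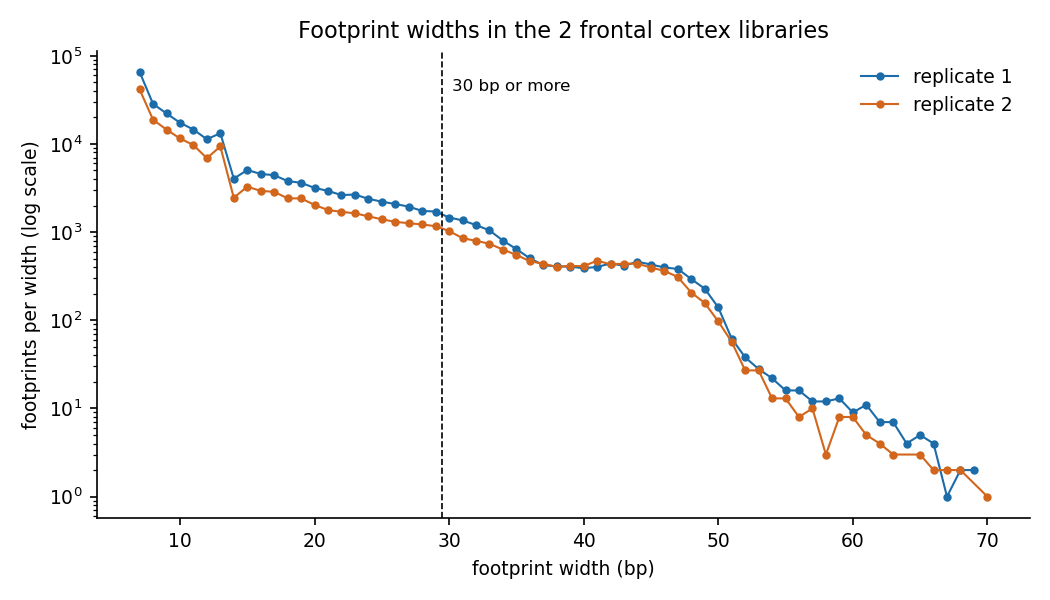
Number of footprints at each width from 7 to 70 bp (log scale) in replicates 1 and 2; the dashed line marks the limit of 30 bp. In both libraries the number rises at 13 bp, and the later fall with width halts before 40 bp and resumes before 50 bp. The range from 40 to 50 bp holds 3978 and 3720 footprints.

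Wide footprints came back in the other library far more often than narrow ones. A footprint was counted as recovered when its middle base lay in a footprint of the other library. A wide interval overlaps more by construction. The middle-base rule does not remove this, since a pair of wide footprints can be shifted further and still count. In replicate 1, 89.9% of wide footprints were recovered (95% interval 89.3 to 90.4%), against 17.1% of narrow footprints (16.9 to 17.3%). The same shares in replicate 2 were 96.6% for wide and 35.1% for narrow footprints. Over all footprints 30.4% of replicate 1 and 49.7% of replicate 2 were recovered. Replicate 1 has the longer list, and whether this lowers its share was not tested. The difference between wide and narrow footprints averaged 67.1 ± 7.91 percentage points (SD, n = 2), and 37.8 points when wide footprints were set against those of 13 to 20 bp. Against narrow footprints the difference was 64.9 points by an overlap of at least 1 bp, and 69.8 points by a reciprocal overlap of 50%.

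Wide footprints were often wide in both libraries. The middle base of 57.2% and 69.8% of wide footprints lay in a footprint that was also wide in the other library, against 0.740% and 2.42% of narrow footprints and 5.03% and 9.32% of all footprints. Of recovered wide footprints alone, 63.6% and 72.2% were wide in the other library. Of recovered narrow footprints, 17591 of 27305 and 17788 of 36180 were narrow in the other library. Keeping the width class was thus not particular to wide footprints. Overlapping footprints that were wide in both libraries formed 7158 pairs, which take 57.2% of the wide footprints of replicate 1 and 69.9% of those of replicate 2. Where the middle base decided the pairing, 62.2% of widths differed by at most 3 bp. Footprints of 40 to 50 bp kept to that range in 59.4% and 63.5% of cases. Those of 35 to 39 bp kept to theirs in 20.8% and 21.8%, and those of 30 to 34 bp in 24.4% and 35.4%. The range of 40 to 50 bp holds more widths than the other ranges, so a small shift in width leaves it less often by construction. These shares do not compare how well width was kept. Counted separately from the middle base, 19.1% and 18.6% of wide footprints overlapped at least 2 footprints of the other library. There 1 library had a single interval where the other had several. The shares were 0.555% and 1.19% of narrow footprints and 3.42% and 4.06% of all footprints. A longer interval can meet more footprints by construction, so these shares are a description only.

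Peak signal, the read-depth normalized height the authors gave each peak, ran with width. The peak that held the footprint had a median signal of 2.34 and 2.02 for wide footprints, against 0.931 and 1.05 for narrow ones, a ratio of 2.22 ± 0.424 (SD, n = 2). Against footprints of 13 to 20 bp the ratio was 1.46. Nearly all wide footprints, 96.9% and 97.5%, lay in a peak, against 84.5% and 85.5% of narrow footprints. Peaks with at least 1 wide footprint numbered 11114 (11.9% of peaks) and 9317 (14.1%). Exactly 2 wide footprints lay in 815 and 550 of these peaks, and 3 or more in 89 and 60. Recovery differed between wide and narrow footprints in peaks of like strength too. In the top decile of peaks by signal, 92.2% and 97.1% of wide footprints were recovered, against 38.6% and 53.1% of narrow ones. In the fifth decile the shares were 58.3% and 88.3% for wide footprints, against 7.72% and 26.0% for narrow ones. Weighting narrow footprints to the peak signals of the wide ones left a difference of 55.3 percentage points.

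**Figure D2:**
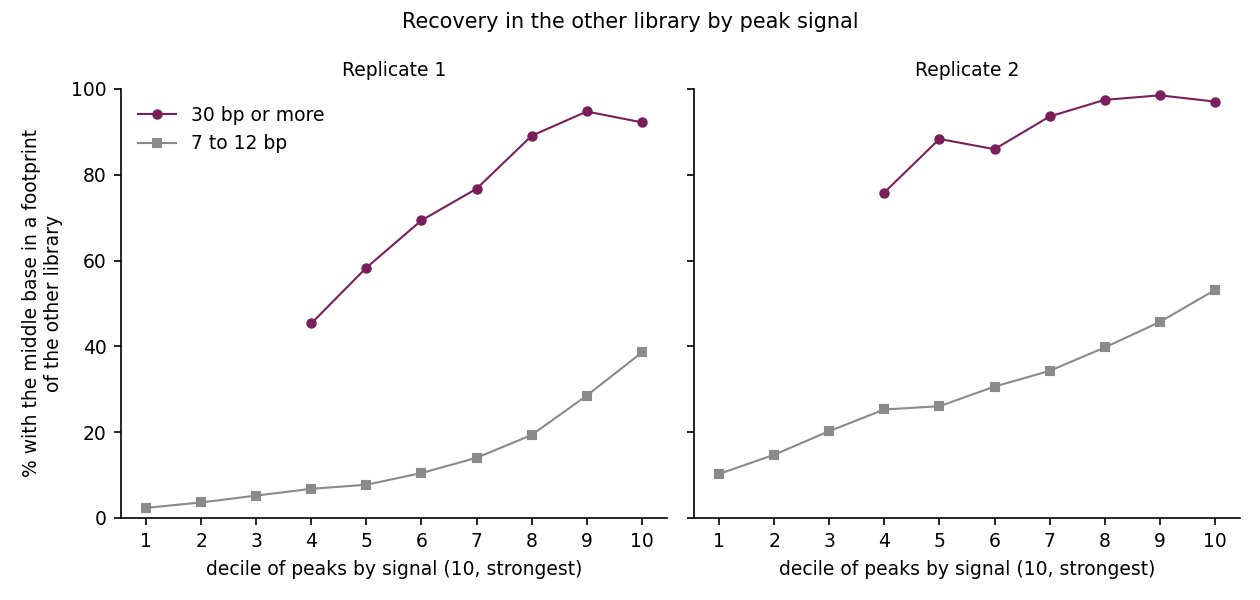
Share of footprints whose middle base lay in a footprint of the other library (%), by decile of each library's peak signal; purple, 30 bp or more (deciles with at least 20 wide footprints), grey, 7 to 12 bp. Wide footprints lie above narrow ones in every decile shown, with 92.2% against 38.6% in the top decile of replicate 1.

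CTCF sites were the leading sequence content. A consensus of 13 bases, searched on both strands in a 60 bp window centred on the middle base, matched exactly in 17.6% and 18.9% of wide footprints, against 0.976% and 1.37% of narrow footprints and 2.71% and 3.52% of all footprints. Allowing 1 mismatch, a step added after values were seen, it matched in 45.0% and 48.2% of wide footprints, against 3.53% and 4.54% of narrow ones and 7.91% and 9.99% of all. A match is a stretch of letters and does not show that CTCF was bound. Matches with up to 1 mismatch were most frequent among footprints of 40 to 50 bp, with 54.6% and 58.1%, and reached 21.5% and 24.7% of those of 51 bp or more. Away from TSSs they were in the majority: beyond 500 bp of any TSS, 62.2% and 64.9% of wide footprints held 1, against 5.19% and 7.63% of narrow footprints. Within 500 bp the shares were 12.7% and 14.4% of wide footprints, against 1.11% and 1.20% of narrow ones.

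**Figure D3:**
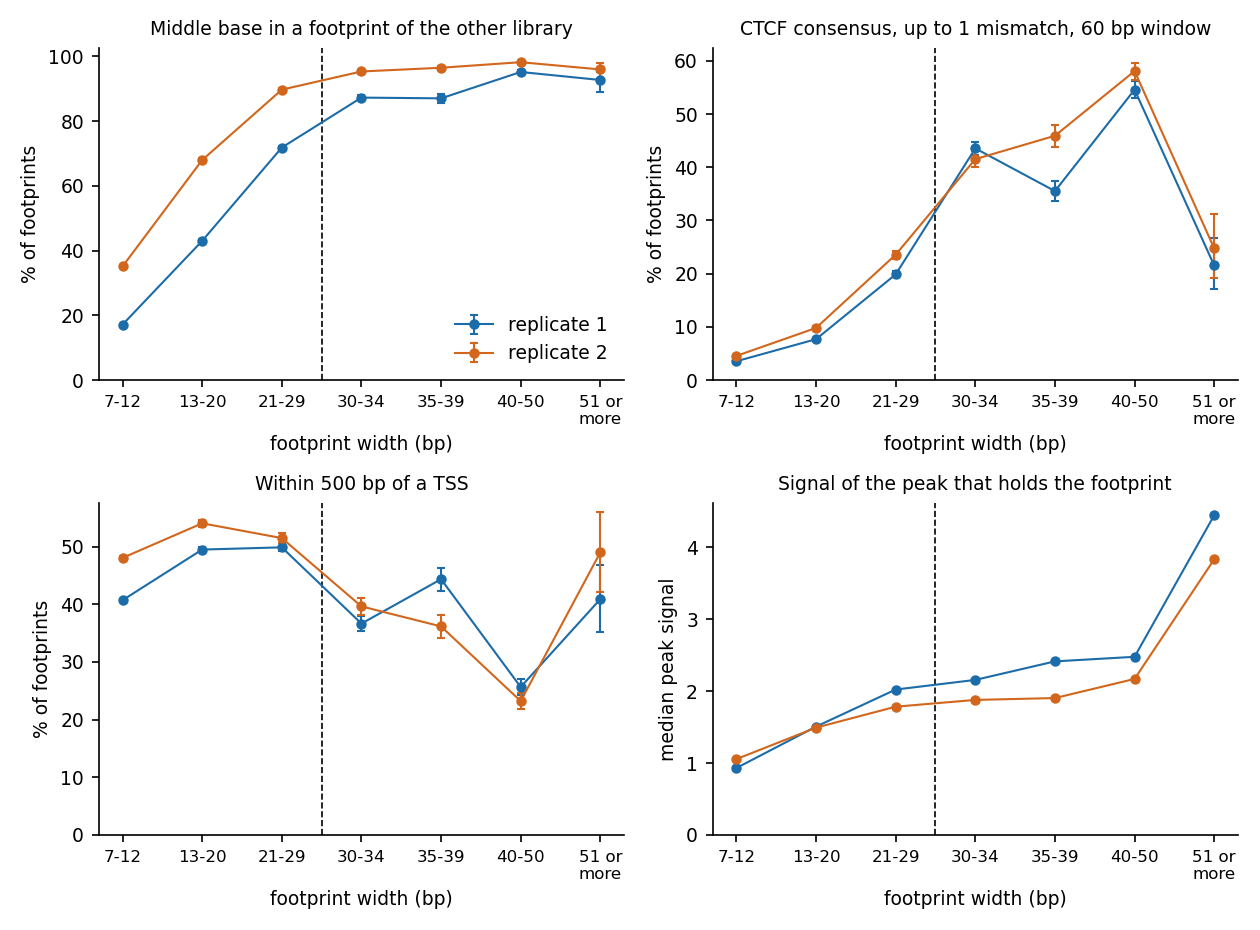
Share recovered in the other library, share with a CTCF match of up to 1 mismatch, share within 500 bp of a TSS, and median peak signal, by footprint width (bp) in replicates 1 and 2; bars are 95% Wilson intervals of the shares and the dashed line marks 30 bp. Recovery is above 85% in each class from 30 bp up, and the class of 40 to 50 bp has the highest CTCF share and the lowest TSS share, 25.6% and 23.2%.

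The position of the CTCF core within the footprint separated the width classes. With the core turned to 1 orientation, footprints of 40 to 50 bp began a median of 22 bp before the core in both libraries and ended 10 and 9 bp after it. Footprints of 30 to 34 bp began a median of 6 and 8 bp before the core and ended 13 and 11 bp after it. The wider class thus reached further on the upstream side and not on the downstream side. In footprints of 40 to 50 bp the quartiles of the start were 21 and 23 bp before the core in replicate 1, and 21 and 24 bp in replicate 2.

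The extra length on the upstream side held a second set of preferred bases. Of the 2171 and 2160 footprints of 40 to 50 bp with a core of up to 1 mismatch, 70.1% and 66.6% had G at 16 bp before the core, 72.3% and 71.2% had T at 12 bp before it, and 55.6% and 55.2% had C at 9 bp before it. Among the 2556 and 1681 footprints of 30 to 34 bp with a core, G stood at the first of these positions in 35.1% and 36.3%, T at the second in 41.4% and 40.1%, and C at the third in 33.5% and 33.8%. At the base 16 bp before the core the information, which is 0 bits for 4 equally frequent bases, was 0.653 and 0.568 bits in the footprints of 40 to 50 bp and 0.0492 and 0.0510 bits in those of 30 to 34 bp. Width alone set these classes, and the search fixed no letter outside the core. The letters spell the word marked in the second set of sequences above, a choice made after these frequencies were seen. Of footprints with a core of up to 1 mismatch, TGCANTNCC stood upstream of it in 10.9% and 10.5% of those of 40 to 50 bp, against 1.76% and 2.38% of those of 30 to 34 bp and 2.38% and 3.50% of the narrow ones.

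**Figure D4:**
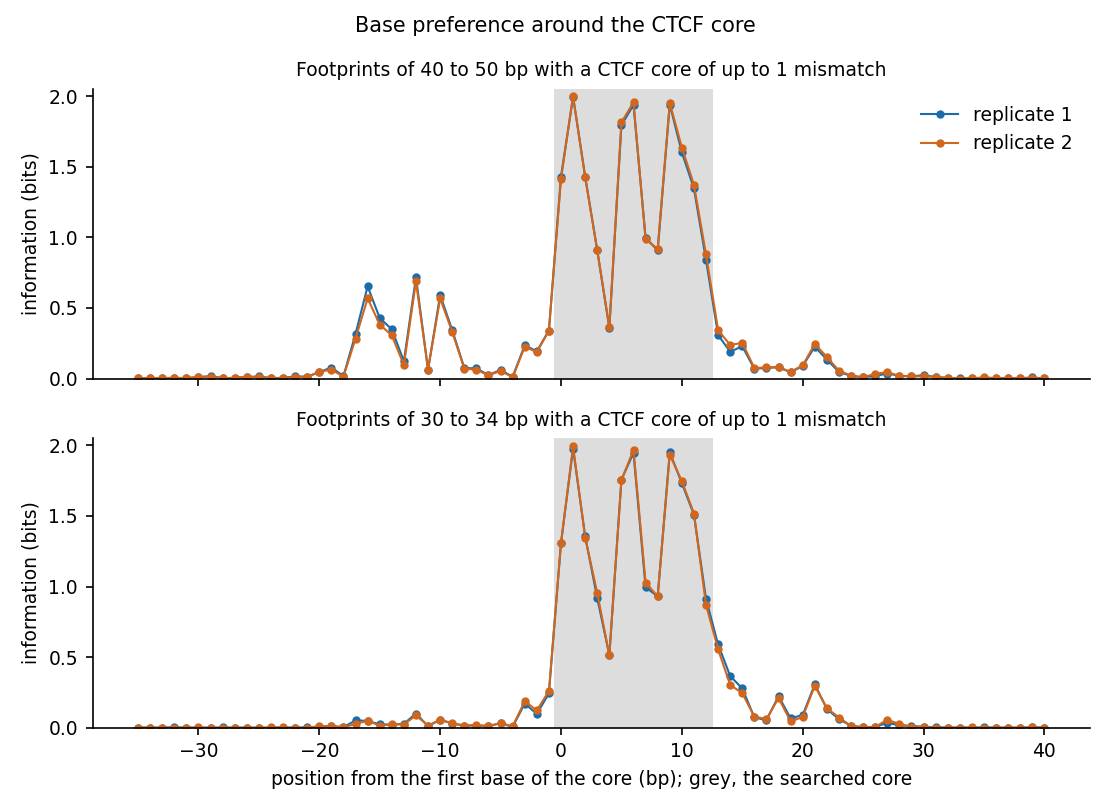
Base preference over sites (information in bits, at most 2) at each position from 35 bp before to 40 bp after the first base of the CTCF core, for footprints of 40 to 50 bp (top) and 30 to 34 bp (bottom) with a core of up to 1 mismatch, in replicates 1 and 2; grey marks the searched core, whose height follows from the search. A second block of preferred bases stands about 9 to 17 bp before the core at the top, reaching 0.717 bits in replicate 1, and the same positions stay near 0.1 bits or below at the bottom.

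Among the 5 widest sites in both libraries, the 1 with CTCF cores lay in an intron of Col18a1, which encodes a collagen of basement membranes. It measured 65 bp in both libraries, in peaks of signal 5.92 and 4.24, and held 2 separate cores with 1 mismatch each, in capitals. It was the 1 footprint of replicate 1 with 2 such cores inside it, and replicate 2 also had 1 footprint with 2.
Col18a1 intron, chr10:77130730-77130794, plus strand: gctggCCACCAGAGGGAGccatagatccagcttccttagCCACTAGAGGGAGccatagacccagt

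Wide footprints lay near TSSs less often than narrow ones, and this split by CTCF content. Within 500 bp of a GENCODE M21 TSS lay 34.7% and 33.1% of wide footprints, against 40.7% and 48.0% of narrow ones and 42.7% and 48.4% of all. The difference averaged -10.5 ± 6.34 percentage points (SD, n = 2). Its size depended on the comparison: it was -30.8 points with narrow footprints weighted to the peak signals of the wide ones, and -2.29 within 100 bp of a TSS, where replicate 1 had 1.14 and replicate 2 had -5.72. Intergenic sites took 32.7% and 33.3% of wide footprints, against 25.1% and 22.7% of narrow ones, and introns 28.1% and 28.8%, against 28.6% and 24.6%. The 4975 and 3672 wide footprints with no CTCF match of up to 2 mismatches, 39.8% and 35.9% of the wide ones, were near TSSs more often. Within 500 bp lay 67.2% and 68.5% of them, against 42.0% and 50.2% of narrow footprints without a match, and the difference averaged 21.8 percentage points. Of these wide footprints 84.1% and 94.0% were recovered in the other library, against 16.3% and 33.3% of the narrow ones.

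At promoters, wide footprints sat upstream of the start. Among those within 500 bp, 77.4% and 78.1% of wide footprints lay on the upstream side of the nearest TSS, against 53.5% and 57.3% of narrow ones. The first 100 bp upstream held 51.2% and 50.4% of wide footprints, against 28.0% and 31.5% of narrow ones. Peaks at these promoter footprints had a median signal of 4.46 and 3.07 for wide and 1.68 and 1.60 for narrow footprints.

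**Figure D5:**
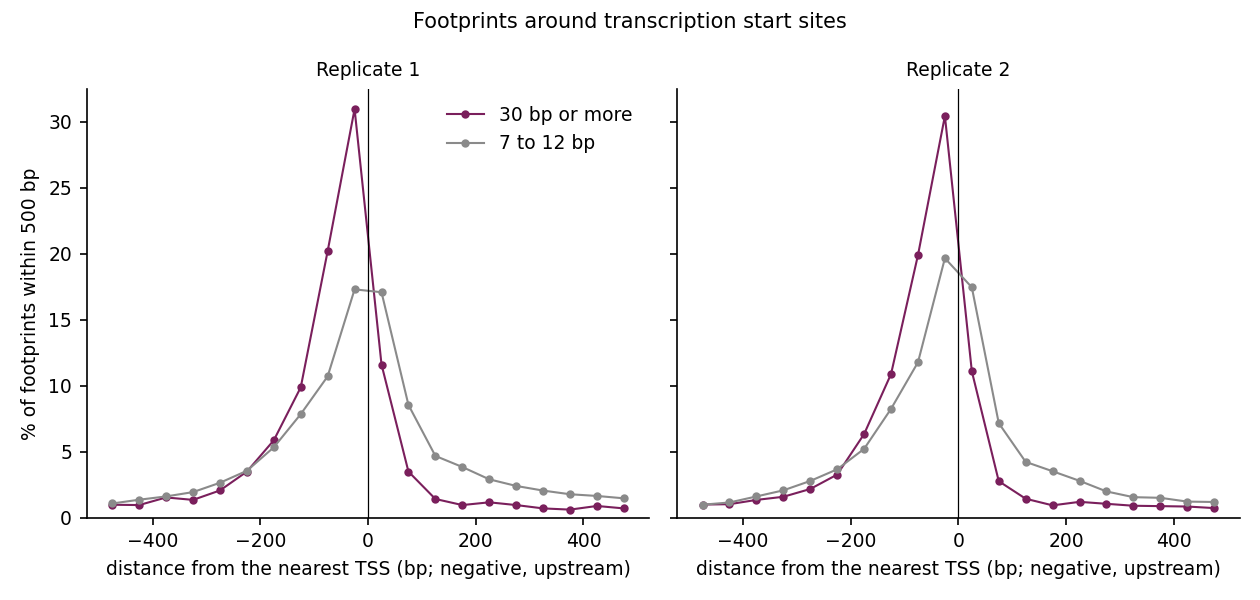
Footprints within 500 bp of the nearest TSS, as % of those in each class per 50 bp bin against distance from the TSS (bp, negative upstream), in replicates 1 and 2; purple, 30 bp or more, grey, 7 to 12 bp. Both classes are highest in the 50 bp before the start, and narrow ones reach further past it: 77.4% of wide and 53.5% of narrow footprints of replicate 1 lie upstream.

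Words of 4 common promoter factors were more frequent in wide than in narrow footprints near TSSs. Within 500 bp of a TSS, CCAAT, the word of the promoter factor NFY, stood in 16.3% and 16.9% of wide footprint windows, against 7.94% and 9.66% of narrow ones. GGGGCGGGG, the GC box of SP and KLF proteins, stood in 12.7% and 8.56%, against 3.06% and 3.60%. TGACGTCA, the cAMP response element bound by CREB and ATF proteins, stood in 2.81% and 2.86% of wide footprints, against 0.310% and 0.519%. GCGCATGCG, read by NRF1, a regulator of nuclear genes for mitochondria, stood in 2.33% and 3.01%, against 0.456% and 0.560%. In the first 100 bp upstream, where wide footprints gather, CCAAT stood in 19.9% and 19.5% of wide and 12.7% and 15.3% of narrow footprint windows, and the GC box in 16.4% and 10.6% of wide and 5.68% and 6.04% of narrow ones. Of the other words searched within 500 bp, those of EGR, ETS and USF were also higher in wide footprints of both libraries. Those of AP-1 and the E-box were lower in both, and those of YY1, TATA and ZNF143 differed in direction between the libraries. The RFX, NFI and MEF2 words stood in at most 4 wide footprints of a library there. Median GC content of the windows within 500 bp was 66.7% and 65.0% for wide, and 65.0% and 63.3% for narrow footprints. Over all footprints at any place the 4 words stood in 7.99% and 9.12% (CCAAT), 2.66% and 2.90% (GC box), 0.427% and 0.551% (cAMP response element), and 0.426% and 0.597% (NRF1). Windows were searched on both strands, and 1 window could count for several words.

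For 2 words of neuronal and inducible factors the direction depended on how much sequence was searched. In the fixed 60 bp window, CAGCTG, an E-box read by bHLH factors such as those of neurons, stood in 3.28% and 3.15% of wide footprints, against 5.64% and 4.76% of narrow ones. Searched in the footprint with 5 bp on each side, which gives wide footprints more sequence, it stood in 2.14% and 2.29% of wide and 1.77% and 1.49% of narrow footprints. The AP-1 site, bound by Fos and Jun proteins, stood in 0.672% and 0.684% of wide and 1.35% and 1.04% of narrow windows, and in 0.400% and 0.400% of wide and 0.322% and 0.239% of narrow footprints with 5 bp on each side. GCGTGGGCG, the word of the inducible EGR factors, stood in 0.280% and 0.186% of wide and 0.137% and 0.154% of narrow windows. The MEF2 site was found in 7 and 6 wide windows, too few for a direction. The REST and HNF1 sites were found in no wide window, which allows a share of up to 0.0240% and 0.0293%, above the REST share of 0.00878% and 0.0116% in narrow windows. The YY1 word CAAGATGGC stood in 98 and 80 wide windows, of which 13 and 14 held no CTCF match of up to 2 mismatches. Without CTCF matches it stood in 0.261% and 0.381% of wide and 0.208% and 0.323% of narrow windows.

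The direction of the GC difference was not stable. The median GC content was 61.3% and 60.5% in wide footprints and 62.5% in narrow ones of both libraries, and in the fixed 60 bp window it was 56.7% in both classes and both libraries. The difference, wide minus narrow, averaged -9.44 points with narrow ones weighted to the same peak signals, -8.11 against footprints of 13 to 20 bp, and 0.562 with wide taken from 25 bp. Footprints made up mostly of soft-masked repeat were 8.37% and 7.85% of wide ones, against 7.59% and 7.32% of narrow ones.

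tRNA genes took a larger share of wide than of narrow footprints, though few in number. Wide footprints with their middle base in a RefSeq tRNA gene numbered 86 (0.688%) and 78 (0.762%), against 140 (0.0878%) and 149 (0.145%) narrow footprints. Over all footprints the numbers were 378 (0.161%) and 364 (0.236%). Of 403 such genes, 238 and 225 lay in a peak, 239 and 221 held a footprint of some width, and 56 held a footprint that was wide in both libraries. Among wide footprints without CTCF matches, GGGTTCGA was in 1.03% and 1.25% of windows, against 0.0884% of narrow windows of both libraries together. The B box of tRNA genes, the part of the internal promoter read by TFIIIC, contains the letters GGTTCGA, shown in capitals in the tRNA's own orientation.
tRNA-Arg (n-TRtcg5), chr7:79466454-79466496, plus strand: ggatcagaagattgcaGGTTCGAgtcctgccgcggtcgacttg
tRNA-Leu (n-TLaag4), chr7:120917564-120917604, plus strand: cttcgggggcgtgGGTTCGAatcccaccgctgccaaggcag
tRNA-Tyr (n-TYgta7), chr13:23432994-23433025, minus strand: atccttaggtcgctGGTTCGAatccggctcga
They measured 43 and 46 bp, 41 and 40 bp, and 32 and 37 bp in replicates 1 and 2. The tRNA-Leu footprint lay 160 bp upstream of a TSS of Polr3e, which encodes a subunit of RNA polymerase III.

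Promoter examples show a factor's word inside a long interval. They were named as the footprint with that word, wide in both libraries, in the strongest peak. Only the word that named the site is in capitals, and any further words in these sequences are not marked. At Zfp143, a zinc-finger activator of snRNA and other promoters, the footprint measured 50 and 49 bp in peaks of signal 12.1 and 9.12, 57 bp upstream of the start, around CCAAT. The site near Rilpl2 held the palindromic RFX site in 37 and 30 bp, and that near Gstm7, a glutathione S-transferase, the NFI site in 31 and 30 bp.
Zfp143 promoter, NFY, chr7:110061628-110061677, plus strand: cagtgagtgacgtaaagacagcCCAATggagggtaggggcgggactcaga
Rilpl2 promoter, RFX, chr5:124478407-124478443, plus strand: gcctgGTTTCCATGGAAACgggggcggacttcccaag
Gstm7 promoter, NFI, chr3:107931855-107931885, plus strand: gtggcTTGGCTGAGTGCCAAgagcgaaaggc
The AP-1 word stood in the strongest peak of these, an intergenic one of signal 28.3 and 25.3 on chromosome 6. The word lay inside the footprint of 46 bp in replicate 1, but outside the overlapping footprint of 41 bp in replicate 2.

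The widest footprint of both libraries measured 98 and 96 bp on chromosome 9 (chr9:3024091-3024188 in replicate 1). It lay over an annotated exon, within the predicted genes Gm10718 and Gm26870. It consisted mostly of soft-masked repeat, had 39.8% GC in replicate 1 and held no CTCF match of up to 3 mismatches. How reads from repeats were placed is unstated. Next came footprints of 67 and 75 bp 170 bp upstream of Dcaf7, a WD-repeat adaptor protein, of 66 and 67 bp 477 bp upstream of Leprot, and of 65 and 68 bp 6434 bp from the TSS of Shf, an SH2 adaptor. None of these 3 held a CTCF core of up to 1 mismatch. The Dcaf7 sequence is shown because it is the widest outside repeats in both.
Dcaf7 promoter, chr11:106036669-106036735, plus strand: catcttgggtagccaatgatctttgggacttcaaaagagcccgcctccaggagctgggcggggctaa
The widest of each library were not always shared as 1 interval: a footprint of 84 bp in an intron of D130009I18Rik and one of 80 bp nearest to Rny3 in replicate 1 each met 3 separate footprints of replicate 2, the widest of them 41 and 27 bp.

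Wide promoter footprints marked a minority of genes. In replicate 1, 3604 of 21938 protein-coding genes (16.4%) had a wide footprint within 500 bp of a TSS, in replicate 2 it was 2911 (13.3%), and 2009 genes (9.16%) had 1 in both. The same site was wide in both libraries at 1815 genes. By contrast 12434 genes had a footprint of some width in both. Gys1, the muscle form of glycogen synthase, and Hexim2, an inhibitor of the elongation kinase P-TEFb, led with 5 and 4 wide footprints in replicates 1 and 2. Rab11b, a GTPase of recycling endosomes, had 5 and 3. Ruvbl2, an ATPase of chromatin remodelling complexes, had 4 and 4, and it shares footprints with Gys1 because their starts lie close together. Tied for the next place, with a mean of 3.5, were Pef1, with 4 and 3, and Pik3r2, a regulatory subunit of PI3 kinase, with 5 and 2.

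Activity-regulated genes had the highest share among the 13 gene lists examined. Of its 16 genes, 7 had a wide promoter footprint in both libraries, against 9.16% of all protein-coding genes. The same site was wide in both at 6 of the 16 genes (37.5%), against 8.27% of all protein-coding genes. The median of the list was 0 wide footprints per gene, as over all genes. These genes are switched on by neuronal activity. The footprint at Btg2, an antiproliferative regulator, measured 40 and 38 bp and lay 18 bp past the start, in peaks of signal 4.29 and 2.95. At Dusp1, a phosphatase of MAP kinases, it measured 34 and 34 bp, 183 bp upstream. Jun had 34 and 38 bp, 95 bp upstream, in peaks of signal 8.84 and 5.86, and Jun had 5 wide footprints in replicate 1 against 1 in replicate 2. At Arc, a synaptic protein, it was 36 and 32 bp, 99 bp upstream with CCAAT in the window, and at Fos 33 and 32 bp, 26 bp upstream with TATAAA in the window. All 16 genes had a footprint of some width in both libraries, against 12434 of 21938 protein-coding genes, of which 16.2% had a wide one in both. Whether the higher count of wide ones follows from that, or from peak signal, which ran with width, was not tested.

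Lists of genes that every cell uses lay close to the share among genes with called promoter footprints, which was 16.2% of the 12434 genes with a footprint in both libraries. Cytosolic ribosomal protein genes had a wide promoter footprint in both libraries in 6 of 29 cases, proteasome genes in 5 of 31, and oxidative phosphorylation genes in 4 of 27 gene records, and 29, 31 and 26 of these had a footprint of some width in both. The median was 0.5 wide footprints per gene in the ribosomal list and 0 in the others and over all genes. The sites at Rpl5 measured 50 and 47 bp and at Rpl27 41 and 42 bp. The sites at the proteasome genes Psmd6 and Psmb3 measured 49 and 51 bp, and 42 and 45 bp. Atp5b, a subunit of ATP synthase, had 56 and 47 bp, and Cox6c, a subunit of cytochrome c oxidase, 40 and 39 bp. The Rpl5 and Psmd6 windows each held a CTCF core with 1 mismatch.

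Wide promoter footprints in both libraries were found in 3 genes of the 7 brain cell type lists. The share was 9.16% over all protein-coding genes, and 16.2% among those with a footprint of some width in both libraries. Among 16 pan-neuronal genes 1 had them in both libraries: Elavl4, a neuronal RNA-binding protein, with 43 and 38 bp in peaks of signal 1.55 and 1.02, where the median over wide footprints was 2.34 and 2.02. Among 10 astrocyte genes 2 had them, including Gfap, the intermediate filament of astrocytes, whose footprint of 37 and 32 bp held the exact CTCF core 84 bp upstream. No gene of the excitatory (13), inhibitory (13), oligodendrocyte (10), microglia (9), endothelial (7), liver and gut (10) or muscle and heart (10) lists had 1 in both. In the brain lists, 15 pan-neuronal, 9 excitatory, 4 inhibitory, 8 astrocyte, 3 oligodendrocyte, 2 microglia and 0 endothelial genes had a footprint of some width in both. A gene without a footprint cannot show a wide one.

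The tissue label was checked with promoter peaks of marker genes. Peaks in both libraries stood at 6 of 6 pan-neuronal markers, 3 of 5 excitatory, 1 of 4 inhibitory and 2 of 4 astrocyte markers. None of the 4 oligodendrocyte, 4 microglia, 3 endothelial and 3 liver markers had peaks in both. In whole tissue, few cells of a type and less open chromatin per cell cannot be told apart. Replicate 1 had 93641 peaks and replicate 2 had 66196, and no source used here states the sequencing depth of either. Reads of both parental genomes were placed on 1 of them, and any effect on footprint width was not tested.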

How the data were processed

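DNase-seq positions were used as deposited, for 2 libraries of 1 group. Per the deposited notes of each library, the authors called peaks and footprints on mm10 from that library's own alignments, with replicates not pooled; no source used here names the caller or its settings. Footprint files give start and end, and the deposited peak lists give a signal, read-depth normalized per those notes, of unstated scale. The longer peak list was used, and a footprint in nested peaks took the strongest.

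Width is end minus start. Distances, GC content and words were computed with Python 3.11.15, pandas 2.3.3, scipy 1.17.1 and pysam 0.24.0 from the GRCm38 RefSeq genome and GENCODE M21, and the interval and word search code was checked on simulated data. No test was run. Members, gene lists and consensus words were chosen with earlier results of these data known; looser CTCF matching, the upstream word, the comparison without CTCF matches and the sequence examples for CTCF and tRNA genes were added after values were seen. Named were the widest footprints, the genes with most wide promoter footprints, 1 site per consensus and up to 2 genes per list (Jun, Arc and Fos were added after their values were seen). Footprint sequences over annotated UTRs are not shown, and false discovery rate tracks were not used. Some sites and genes that these rules name are not reported here.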

Additional observations from a re-analysis of the deposited data

How the results depend on the processing

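No paired analysis was possible because both libraries belong to 1 group. Of 43 alternatives that kept both libraries, 27 moved the value by more than the spread between libraries and 3 turned its direction. These 3 include the weighted signal ratio of 0.999 given below, which is set by construction and is no real change of direction. Leaving out 1 of 2 libraries moves a mean by less than their SD by construction, so it shows nothing of stability. The mean share of wide footprints was 10.1% from 25 bp and 2.18% from 40 bp, and that of genes 24.8% from 25 bp, 14.8% as reported and 4.36% from 40 bp, or 10.1% within 100 bp of a TSS. Against footprints of 13 to 20 bp in place of 7 to 12 bp, the differences became 37.8 points for recovery, -17.9 for TSS share, -8.11 for GC, 15.5 for CTCF and 0.230 for NRF1, and the signal ratio 1.46. Weighting narrow footprints to the peak signals of the wide ones gave 55.3, -30.8, -9.44 and 0.406 points for recovery, TSS share, GC and NRF1, and a signal ratio of 0.999, which the weighting sets by construction. With wide from 40 bp they were -18.8 for TSS share, -5.03 for GC, 18.1 for CTCF and 0.229 for NRF1, and from 25 bp 14.6 for CTCF and 0.562 for GC. That GC value has the opposite sign to the reported -1.62, and a fixed 60 bp window gave 0, so no direction is drawn for GC. The TSS difference was -2.29 within 100 bp, with 1.14 in replicate 1 and -5.72 in replicate 2, and it turned to 21.8 without CTCF matches. Searching the footprint with 5 bp on each side gave 18.1 for CTCF and 0.877 for NRF1. Allowing 1 mismatch gave 42.6 for CTCF, and NRF1 within 500 bp of a TSS gave 2.16. The stricter peak list gave a signal ratio of 1.56. Beyond the constructions named, the causes were not tested. With 1 library left out, the differences ranged from 61.5 to 72.7 points for recovery and from -15.0 to -5.99 for TSS share. The unstated sequencing depth limits all shares that rest on the shorter list.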
